A study of Mus musculus with 18 samples.

Results

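The 32 receptor genes described here encode the receptors through which serotonin, dopamine, noradrenaline, acetylcholine (muscarinic), histamine, adenosine and endocannabinoids act on dentate gyrus cells. They were chosen by gene symbol, and all 32 were found among the 24015 rows of each of the authors' deposited tables. RNA was sequenced from the microdissected dentate gyrus of C57BL/6 mice aged 8 weeks, with 18 libraries in 6 groups of 3 and a library per animal. The cFos_OE and EYFP_OE groups overexpressed c-Fos, a subunit of the activity-induced transcription factor AP-1, or a yellow fluorescent protein. The other groups were shRNA-cFos_E1, shRNA-cFos_E0, shRNA-Ctrl_E1 and shRNA-Ctrl_E0, which carried a short hairpin RNA named for c-Fos or a control hairpin. Mice of each hairpin were taken at E1 or at E0, a state the table names call sham. The labels describe a study of neuronal activation, and do not give the stimulus, the vectors, their promoters or the cells they reached. The question put to the receptor genes is how their RNA differed at E1 with each hairpin, whether the E1 responses differed between the hairpins, and how it differed with c-Fos overexpression.

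All but 1 of these receptors are G protein-coupled receptors, and the exception, Htr3a, encodes a subunit of a serotonin-gated ion channel. Receptors coupled to Gs raise cyclic AMP, those coupled to Gi/o lower it and damp excitability and transmitter release, and those coupled to Gq release calcium from internal stores. In the dentate gyrus, noradrenaline from the locus coeruleus, serotonin from the raphe nuclei and acetylcholine from the septum set how readily granule neurons fire, while adenosine and endocannabinoids act locally to restrain transmitter release.

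The deposited tables hold fold changes and no values per animal, so neither the value nor the depth of a single library can be given. For each gene they give a mean normalized count, taken over both groups of a comparison (6 libraries), and a log2 fold change ± its standard error (SE), which the authors' fit had pulled toward 0. Group levels below were estimated from that mean and the fold change after removing this pull, so they carry no error. The 3 tables were normalized separately, so levels cannot be compared between them. A gene was called where the authors' Benjamini-Hochberg adjusted p, taken over all genes, was under 0.05. Fos itself was higher at E1 in the shRNA-cFos arm (2.33 ± 0.15) and with shRNA-Ctrl (3.36 ± 0.14), and higher with c-Fos overexpression (3.34 ± 0.20), in the authors' deposited tables. Its E1 response was smaller with shRNA-cFos, by a difference of -1.03 ± 0.20 (adjusted p = 1.11e-05) in a test built on those tables. The granule neuron markers were all detected, with mean normalized counts of 225 to 2650, 322 to 4677 and 261 to 4721 in the shRNA-cFos, shRNA-Ctrl and overexpression comparisons of the authors' deposited tables. The tissue is bulk, so fewer cells of a type and less RNA per cell cannot be told apart.

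Per length, the receptor genes ranged widely. Adra1d, Adora1, Chrm1 and Cnr1 held ranks 1, 2, 3 and 4 in mean normalized count per kb of exon in each table. For Adra1d this scale gave 840 with shRNA-cFos, 1228 with shRNA-Ctrl and 782 in the overexpression table, computed from the authors' deposited tables. The neighbouring Adora1, the inhibitory A1 adenosine receptor, had 619, 856 and 769 per kb in the same order of tables, and Cnr1, the CB1 cannabinoid receptor, had 462, 586 and 524. At the low end Htr1b and Htr1d, Gi/o-coupled serotonin receptors, lay between 0.925 and 1.57 per kb in the 3 tables. With separate normalization, this scale orders genes within a table and does not compare levels between tables. The spread between animals is not in these tables, so neighbours in this order cannot be told apart statistically. Drd1a moved most in rank, standing 15 of 32 in the overexpression table, 23 with shRNA-cFos and 22 with shRNA-Ctrl.

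**Figure D1:**
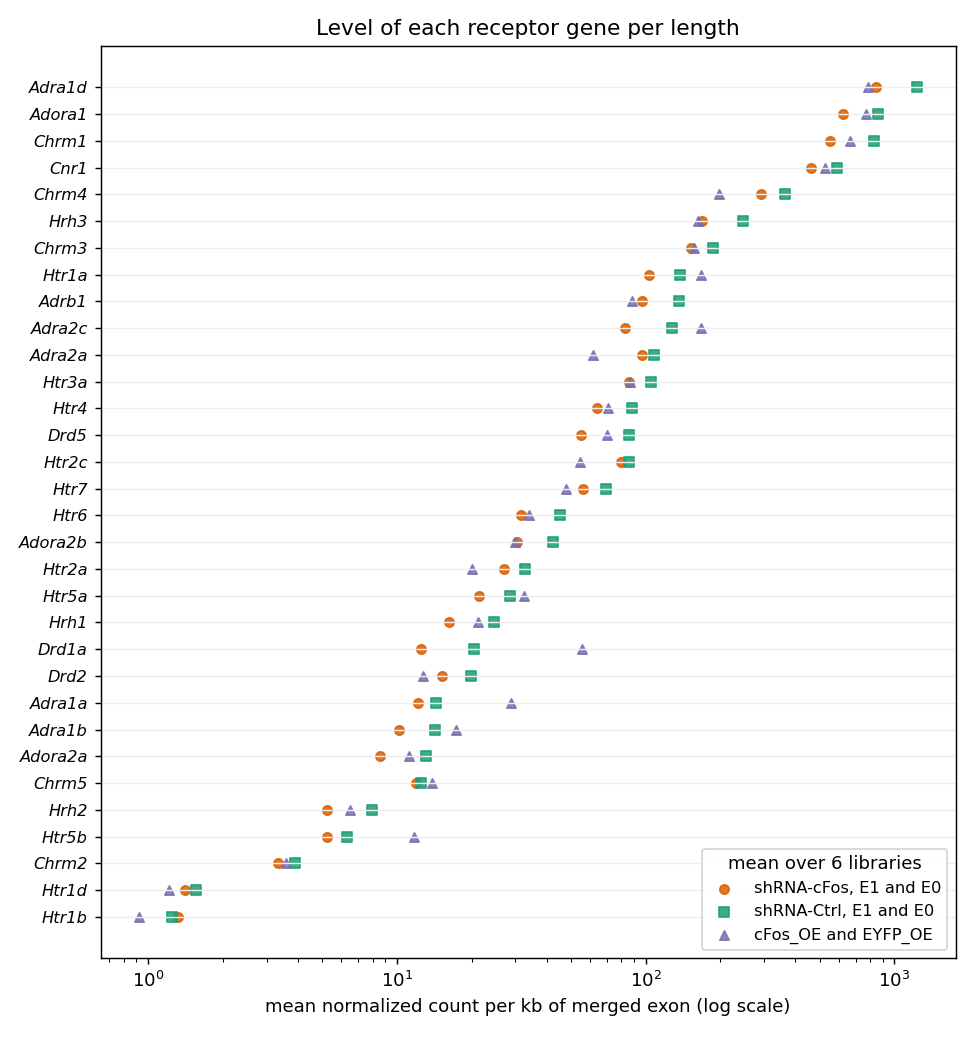
Mean normalized count per kb of merged exon (log axis) for each of the 32 receptor genes in the 3 deposited tables, each a mean over 6 libraries with no error available. The 3 tables were normalized separately. Adra1d stands highest in all 3 tables at 782 to 1228 per kb, and the overexpression points of Drd1a and Adra1a lie to the right of their other points.

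With shRNA-cFos 8 of 29 tested receptor genes were called at E1, 5 higher and 3 lower, which is close to the 28.1% of all genes tested in the authors' deposited table (16.3% higher, 11.7% lower). Their median log2 fold change was 0.16, beside -0.003 for all genes tested. With shRNA-Ctrl 17 of 31 were called, 13 higher and 4 lower, beside 33.0% of all genes tested in the authors' deposited table (16.8% higher, 16.2% lower), and the median was 0.36, beside 0.01 for all genes tested. With c-Fos overexpression 7 of 32 were called, 3 higher and 4 lower, beside 13.0% of all genes tested in the authors' deposited table (7.10% higher, 5.86% lower), and the median was -0.06. No test sets the receptor genes against other genes. The receptor genes were sparser than the genes tested in the shRNA-Ctrl table. Their median mean normalized count was 201 over all 32, against 420 for all genes tested, which leaves out genes under the authors' minimum count. Htr1b, Htr1d and Htr5b fell under the authors' minimum count in the shRNA-cFos table, and Htr1d in the shRNA-Ctrl table, so they have no adjusted p there.

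**Figure D2:**
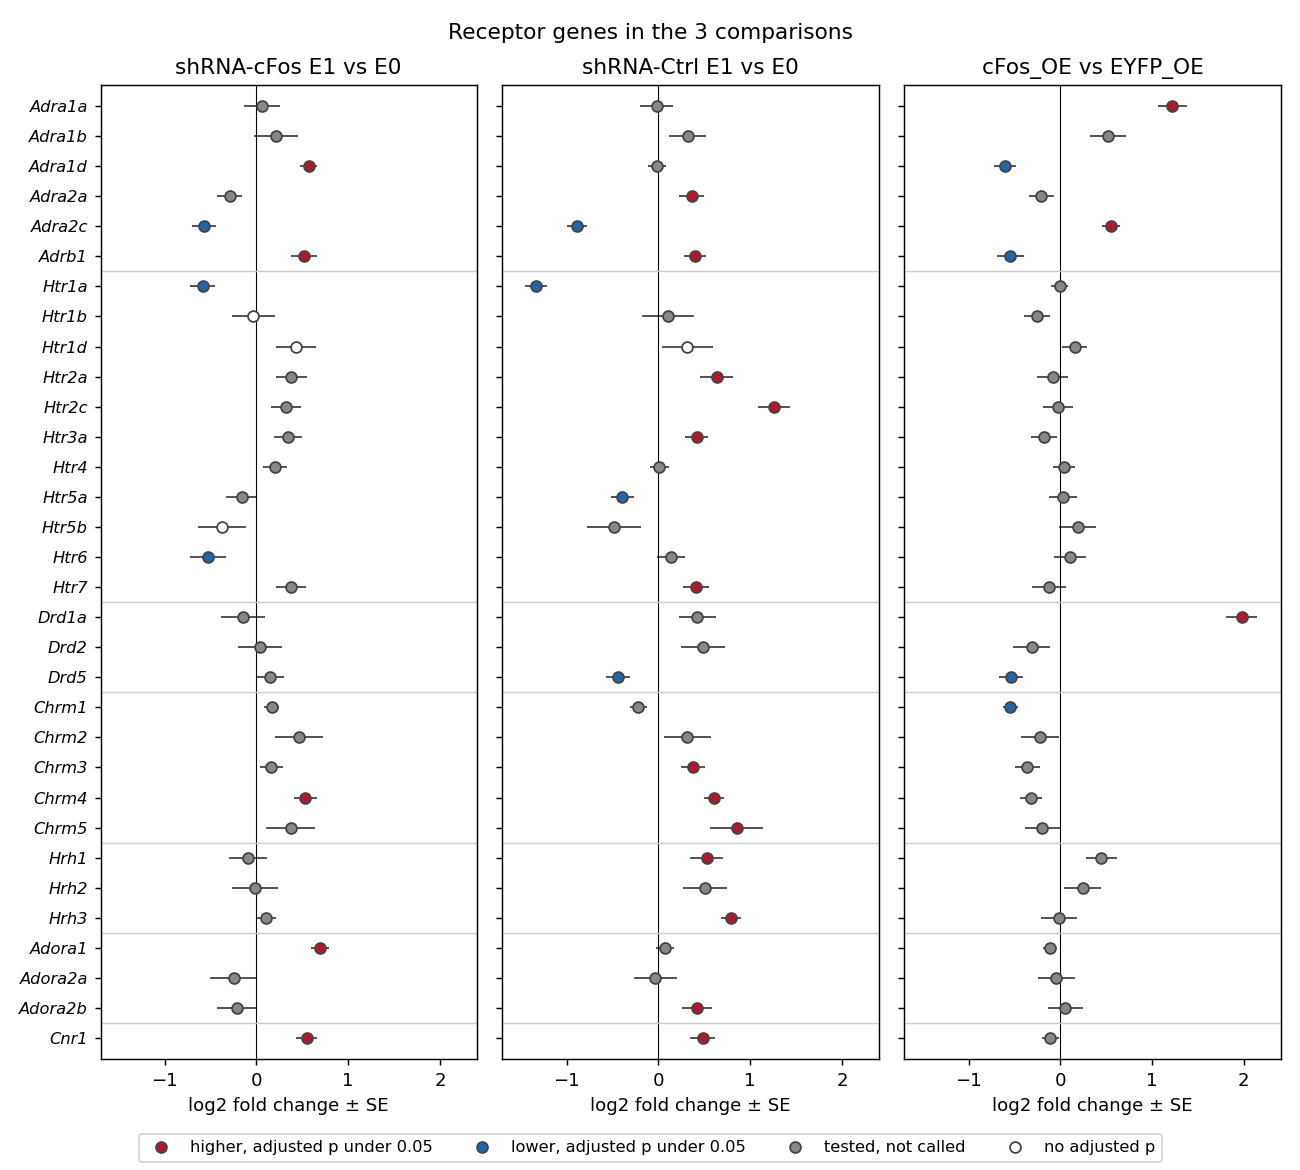
Log2 fold change ± SE (x axis) of each receptor gene (rows, grouped by transmitter) at E1 over E0 with shRNA-cFos, at E1 over E0 with shRNA-Ctrl, and in cFos_OE over EYFP_OE. Filled red and blue points are genes called higher and lower, 8 with shRNA-cFos, 17 with shRNA-Ctrl and 7 with overexpression; grey points were not called, open points have no adjusted p, and Drd1a lies farthest right at 1.98.

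Across the 3 comparisons 23 receptor genes were called at least once, and Adra2c and Adrb1 in all 3. The like shares of all genes were not counted, so these counts have no baseline. Single comparisons called 28.1% (shRNA-cFos), 33.0% (shRNA-Ctrl) and 13.0% (overexpression) of all genes tested. The hairpin arms share no animals. Their calls shared 5 genes, all in the same direction: Adra2c and Htr1a were lower at E1, and Adrb1, Chrm4 and Cnr1 were higher. That is 62.5% of the calls with shRNA-cFos and 29.4% of those with shRNA-Ctrl, where all genes gave 36.9% and 28.8%. Overexpression shared 3 calls with each arm. Against shRNA-cFos all 3 (Adra1d, Adra2c, Adrb1) ran in the opposite direction, and among all genes called in both 65.2% did. Against shRNA-Ctrl, Adra2c and Adrb1 were opposite and Drd5 was lower in each, and among all genes called in both 25.8% were opposite. Opposite calls between overexpression and shRNA-cFos are thus common among all genes.

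Upstream windows of the genes were read from RefSeq (GRCm38.p6) for motifs of factors that neuronal activity engages, the AP-1 site TGACTCA and the cyclic AMP response element TGACGTCA with its core TGACG, each on both strands. The core is part of the full element. Windows were the 250 bases before each listed start, and 25 of the 32 genes had 36 such windows; Adora2a, Adra1a, Adra1d, Chrm1, Htr3a, Htr4 and Htr5b had none. TGACTCA stood in 2 of 36 windows (5.56%), against 4.46% of all 32851 windows. TGACGTCA stood in 0 of 36, against 1.55% of all windows, and TGACG in 3 of 36 (8.33%), against 17.8%. The 5 matches are shown with 25 bases on either side, the motif in capitals. Both genes with the AP-1 letters come first, Hrh1 at 1 of its listed starts and Adra1b, then the 3 with the element's core, which were all called higher at E1 with shRNA-Ctrl. Last come the 150 bases before the start of Drd1a (listed as Drd1, the more upstream of its starts) and of Htr1a, the gene with the largest change with overexpression and a gene called lower at E1 in each arm. These stretches hold none of the motifs.
Hrh1: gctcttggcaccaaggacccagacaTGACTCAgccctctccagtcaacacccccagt
Adra1b: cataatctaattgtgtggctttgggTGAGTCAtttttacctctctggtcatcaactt
Adrb1: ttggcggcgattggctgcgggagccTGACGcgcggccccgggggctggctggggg
Adra2a: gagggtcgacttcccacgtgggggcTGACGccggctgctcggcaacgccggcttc
Htr7: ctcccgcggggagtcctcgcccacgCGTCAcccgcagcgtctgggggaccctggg
Drd1a: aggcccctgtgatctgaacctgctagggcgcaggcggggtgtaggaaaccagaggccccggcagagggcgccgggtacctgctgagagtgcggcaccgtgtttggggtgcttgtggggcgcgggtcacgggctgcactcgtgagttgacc
Htr1a: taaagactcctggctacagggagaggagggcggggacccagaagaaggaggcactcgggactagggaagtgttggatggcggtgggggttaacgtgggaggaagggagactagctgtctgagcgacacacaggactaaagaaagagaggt

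These stretches lie at chr6:114458281-114458337 (plus strand) for Hrh1, chr11:43901404-43901460 (minus) for Adra1b, chr19:56722002-56722056 (plus) for Adrb1 and chr19:54045165-54045219 (plus) for Adra2a. Those of Htr7, Drd1a and Htr1a lie at chr19:36057418-36057472 (minus), chr13:54055659-54055808 (minus) and chr13:105443543-105443692 (plus). The first capital letter stands 216 bases before the start for Hrh1, 198 for Adra1b, 90 for Adrb1, 69 for Adra2a and 87 for Htr7. A match gives letters only, and occupancy was not measured here.

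Among noradrenaline receptors, Adra2c and Adrb1 changed in every comparison, and with overexpression each ran opposite to its E1 responses. Adra2c, a Gi/o-coupled alpha2 receptor that limits transmitter release, was lower at E1 with shRNA-cFos (-0.57 ± 0.13, adjusted p = 9.77e-05) and with shRNA-Ctrl (-0.88 ± 0.11, adjusted p = 2.54e-14) in the authors' deposited tables. Its estimated level was 224 normalized counts in shRNA-cFos_E1 and 344 in shRNA-cFos_E0, and 304 in shRNA-Ctrl_E1 and 573 in shRNA-Ctrl_E0. With overexpression Adra2c was higher (0.55 ± 0.10, adjusted p = 4.42e-07 in the authors' deposited table), at an estimated 694 in cFos_OE and 461 in EYFP_OE. The beta1 receptor gene Adrb1, whose product couples to Gs, rose at E1 by 0.51 ± 0.14 with shRNA-cFos (adjusted p = 0.00238) and by 0.40 ± 0.12 with shRNA-Ctrl (adjusted p = 0.00544) in the authors' deposited tables. It was lower in cFos_OE than in EYFP_OE, at -0.54 ± 0.14 (adjusted p = 0.00228) in the authors' deposited table. The estimated Adrb1 level was 339 in shRNA-cFos_E1 and 230.0 in shRNA-cFos_E0, 458 in shRNA-Ctrl_E1 and 343 in shRNA-Ctrl_E0, and 205 in cFos_OE and 318 in EYFP_OE. Neither gene's E1 response passed the test of a difference between hairpins, with intervals (95%) of -0.02 to 0.64 for Adra2c and -0.25 to 0.49 for Adrb1.

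The 3 alpha1 receptor genes, whose products couple to Gq, differed among themselves. Adra1d, the most abundant receptor gene per length, was higher at E1 with shRNA-cFos (0.57 ± 0.09, adjusted p = 1.21e-08), against -0.02 ± 0.10 with shRNA-Ctrl (adjusted p = 0.923), in the authors' deposited tables. Estimated levels of Adra1d were 1916 in shRNA-cFos_E1 and 1276 in shRNA-cFos_E0, against 2319 in shRNA-Ctrl_E1 and 2346 in shRNA-Ctrl_E0. With overexpression it fell by 0.60 on the log2 scale (adjusted p = 1.28e-05), while Adra1a rose by 1.22 ± 0.16 (adjusted p = 2.31e-12), in the authors' deposited table. The estimated level of Adra1a was 292 in cFos_OE and 103 in EYFP_OE, a 2.84-fold difference with the pull toward 0 removed. Adra1a was not called at E1, at 0.06 ± 0.20 with shRNA-cFos and -0.02 ± 0.18 with shRNA-Ctrl in the authors' deposited tables. Adra1b was called nowhere, and its overexpression value of 0.52 ± 0.20 (adjusted p = 0.0593 in the authors' deposited table) lay just outside the threshold. Adra2a, a further Gi/o-coupled alpha2 receptor gene, stood at -0.29 ± 0.14 with shRNA-cFos, where it was not called, and rose by 0.36 ± 0.14 with shRNA-Ctrl (adjusted p = 0.0285) in the authors' deposited tables. The estimated Adra2a level was 594 in shRNA-Ctrl_E1 and 455 in shRNA-Ctrl_E0. Exons of Adra1d overlap an antisense gene in the GENCODE M21 annotation, and the strand setting of the counts is not given in the sources used here.

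Of the serotonin receptor genes, 2 of 8 were called at E1 with shRNA-cFos, both lower, and 6 of 10 with shRNA-Ctrl, 4 higher and 2 lower, beside 28.1% and 33.0% of all genes tested. With overexpression 0 of 11 were called, beside 13.0% of all genes tested. Besides that DESeq2 test, 0 of the 11 had an unadjusted p under 0.05 in the authors' deposited table. Htr1a, the Gi/o-coupled autoreceptor and postsynaptic receptor that hyperpolarises neurons, was called lower at E1 in each arm. Its log2 fold change was -0.59 ± 0.14 with shRNA-cFos (adjusted p = 0.000244) and -1.33 ± 0.12 with shRNA-Ctrl (adjusted p = 1.17e-26) in the authors' deposited tables. The estimated Htr1a level was 363 in shRNA-cFos_E1 and 564 in shRNA-cFos_E0, against 340 in shRNA-Ctrl_E1 and 892 in shRNA-Ctrl_E0. With overexpression Htr1a stood at -0.01 ± 0.09 (95% interval -0.18 to 0.17) in the authors' deposited table, with an estimated 745 in cFos_OE and 749 in EYFP_OE.

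Htr2c, a Gq-coupled receptor also known from the choroid plexus, stood at 0.32 ± 0.16 at E1 with shRNA-cFos (adjusted p = 0.134), against a rise of 1.26 ± 0.18 with shRNA-Ctrl (adjusted p = 2.18e-11), in the authors' deposited tables. Its estimated level was 454 in shRNA-cFos_E1 and 353 in shRNA-cFos_E0, against 629 in shRNA-Ctrl_E1 and 239 in shRNA-Ctrl_E0. Of 6 choroid plexus markers tested with shRNA-Ctrl, none was higher and 2 were lower, beside 16.8% and 16.2% of all genes tested. The 8 markers listed had an estimated summed level of 456 in shRNA-Ctrl_E1 and 760 in shRNA-Ctrl_E0 from the authors' deposited table. None of the 8 was at 0, and their part in the Htr2c result was not tested. Also higher at E1 with shRNA-Ctrl were Htr2a, the other Gq-coupled serotonin receptor here (0.64 ± 0.18, adjusted p = 0.00256), Htr3a (0.42 ± 0.13, adjusted p = 0.00451) and the Gs-coupled Htr7 (0.41 ± 0.14, adjusted p = 0.0147) in the authors' deposited table. Estimated levels in shRNA-Ctrl_E1 and shRNA-Ctrl_E0 were 229 and 139.7 for Htr2a, 252 and 186 for Htr3a, and 256 and 189 for Htr7. With shRNA-cFos the same 3 stood at 0.38 ± 0.17, 0.34 ± 0.15 and 0.38 ± 0.16, with adjusted p of 0.0782, 0.0812 and 0.0611 in the authors' deposited table. None of the 3 differed between arms past the threshold, with differences from -0.26 ± 0.25 for Htr2a to -0.03 ± 0.21 for Htr7, computed from the authors' deposited tables. Htr6, a Gs-coupled receptor gene, was lower at E1 with shRNA-cFos (-0.53 ± 0.20, adjusted p = 0.0319), and Htr5a, a Gi/o-coupled one, was lower with shRNA-Ctrl (-0.39 ± 0.13, adjusted p = 0.00793), in the authors' deposited tables. The estimated level of Htr6 was 57.8 in shRNA-cFos_E1 and 90.1 in shRNA-cFos_E0. Htr4, a Gs-coupled receptor gene with mean normalized counts of 314 to 435, was called in no comparison, at 0.21 ± 0.13 with shRNA-cFos, 0.01 ± 0.10 with shRNA-Ctrl and 0.04 ± 0.12 with overexpression in the authors' deposited tables. The sparse Htr1b, Htr1d and Htr5b had mean normalized counts of 3.74 to 22.8 and were called nowhere.

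The largest change of any receptor gene was that of Drd1a, the Gs-coupled D1 dopamine receptor, with c-Fos overexpression. Its log2 fold change was 1.98 ± 0.17 (adjusted p = 3.7e-30 in the authors' deposited table), or 5.62-fold with the pull toward 0 removed. The estimated level of Drd1a was 337 normalized counts in cFos_OE and 59.9 in EYFP_OE. At E1 Drd1a was not called, at -0.15 ± 0.24 with shRNA-cFos and 0.42 ± 0.20 with shRNA-Ctrl (adjusted p = 0.696 and 0.0888) in the authors' deposited tables. Drd5, the other Gs-coupled dopamine receptor, went the opposite way with overexpression, at -0.54 ± 0.13 (adjusted p = 0.00116) in the authors' deposited table. At E1 Drd5 stood at 0.15 ± 0.15 with shRNA-cFos, against a lower level with shRNA-Ctrl (-0.45 ± 0.13, adjusted p = 0.00339), by the authors' deposited tables. Estimated Drd5 levels were 228 in shRNA-Ctrl_E1 and 315 in shRNA-Ctrl_E0, and 174 in cFos_OE and 266 in EYFP_OE. Drd2, a Gi/o-coupled receptor known from hilar mossy cells, had a mean normalized count of 32.4 to 50.5 and was called in no comparison. Its overexpression value was -0.31 ± 0.20 in the authors' deposited table. Adora2a, which striatal neurons co-express with Drd2, stood at -0.04 ± 0.20 there and was likewise not called.

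**Figure D3:**
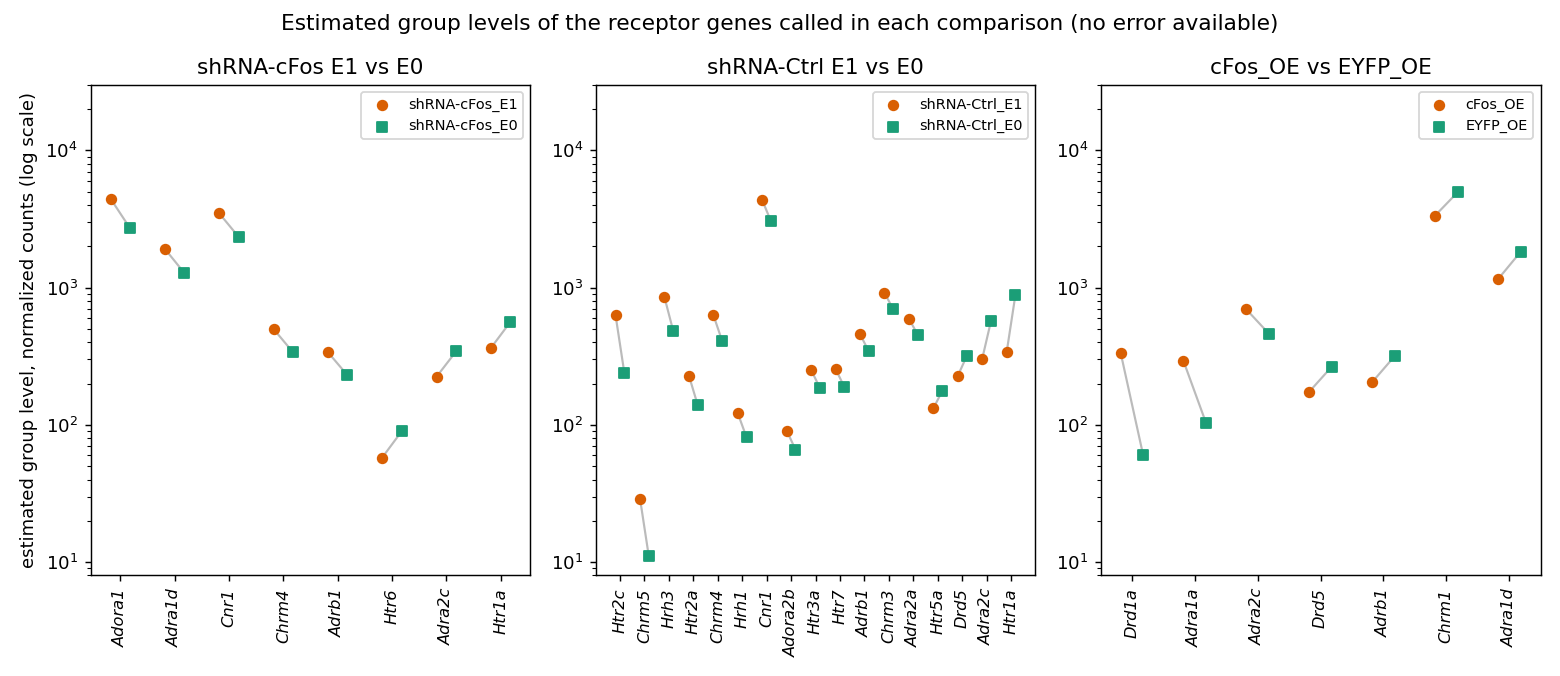
Estimated group levels in normalized counts (log axis) of the receptor genes called in each comparison, ordered by fold change, with E1 or cFos_OE to the left of E0 or EYFP_OE for each gene. No error can be drawn, because the tables hold no values per library; Drd1a shows the widest gap, 337 in cFos_OE and 59.9 in EYFP_OE, and the level of Chrm5 is uncertain.

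Of the 5 muscarinic receptor genes, 1 was called with shRNA-cFos (higher), 3 with shRNA-Ctrl (higher) and 1 with overexpression (lower), beside 28.1%, 33.0% and 13.0% of all genes tested. The Gi/o-coupled Chrm4 rose at E1 by 0.53 ± 0.12 with shRNA-cFos (adjusted p = 0.000193) and by 0.61 ± 0.11 with shRNA-Ctrl (adjusted p = 4.54e-07) in the authors' deposited tables. Its estimated level was 500 in shRNA-cFos_E1 and 338 in shRNA-cFos_E0, and 633 in shRNA-Ctrl_E1 and 409 in shRNA-Ctrl_E0. Of the Gq-coupled members, Chrm3 (0.38 ± 0.13, adjusted p = 0.0158) and Chrm5 (0.85 ± 0.29, adjusted p = 0.0118) rose with shRNA-Ctrl in the authors' deposited table. The estimated Chrm3 level was 919 in shRNA-Ctrl_E1 and 695 in shRNA-Ctrl_E0. Chrm5 has a mean normalized count of only 20.0 there and an SE near the largest in the table, so its size is uncertain. Chrm1, the main postsynaptic muscarinic receptor of hippocampal principal neurons, was not called at E1, at 0.17 ± 0.08 with shRNA-cFos and -0.22 ± 0.09 with shRNA-Ctrl (adjusted p = 0.113 and 0.0575) in the authors' deposited tables. It was lower with overexpression, at -0.54 ± 0.08 (adjusted p = 9.07e-10) in the authors' deposited table, with an estimated 3344 in cFos_OE and 4955 in EYFP_OE. The other muscarinic genes had negative values there too, and none passed; Chrm3 (-0.36 ± 0.13, adjusted p = 0.0541) and Chrm4 (-0.32 ± 0.12, adjusted p = 0.0595) lay just outside the threshold in the authors' deposited table. Chrm2, a Gi/o-coupled receptor gene with mean normalized counts of 18.9 to 22.1, was called nowhere, at 0.46 ± 0.26 with shRNA-cFos and 0.32 ± 0.26 with shRNA-Ctrl in the authors' deposited tables.

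Histamine receptor genes had positive values at E1 with shRNA-Ctrl. Hrh3, the Gi/o-coupled receptor that limits histamine and other transmitter release, stood at 0.10 ± 0.11 with shRNA-cFos, against a rise of 0.79 ± 0.11 with shRNA-Ctrl (adjusted p = 2.15e-11), by the authors' deposited tables. Estimated levels of Hrh3 were 471 in shRNA-cFos_E1 and 438 in shRNA-cFos_E0, against 852 in shRNA-Ctrl_E1 and 483 in shRNA-Ctrl_E0. In the overexpression table Hrh3 had an SE of 0.20, close to the largest of that table, against 0.12 for Htr4 with a like mean, so its value of -0.01 there is imprecise. The Gq-coupled Hrh1 rose with shRNA-Ctrl (0.53 ± 0.18, adjusted p = 0.0125), and Hrh2, coupled to Gs, stood at 0.51 ± 0.24 (adjusted p = 0.0857), in the authors' deposited table. With shRNA-cFos they stood at -0.09 ± 0.21 and -0.02 ± 0.26, and their differences between arms did not pass (adjusted p = 0.0831 and 0.293), computed from the authors' deposited tables.

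Adora1 and Cnr1, the abundant brakes on glutamate and GABA release, were both higher at E1 with shRNA-cFos. For Adora1 the log2 fold change was 0.69 ± 0.10 with shRNA-cFos (adjusted p = 1.98e-10), against 0.07 ± 0.10 with shRNA-Ctrl (adjusted p = 0.635), in the authors' deposited tables. Adora1 had an estimated 4453 in shRNA-cFos_E1 and 2706 in shRNA-cFos_E0, against 5078 in shRNA-Ctrl_E1 and 4831 in shRNA-Ctrl_E0. Cnr1 rose in each arm, by 0.55 ± 0.11 with shRNA-cFos (adjusted p = 2.21e-05) and by 0.48 ± 0.14 with shRNA-Ctrl (adjusted p = 0.00262) in the authors' deposited tables. The estimated Cnr1 level was 3481 in shRNA-cFos_E1 and 2336 in shRNA-cFos_E0, and 4339 in shRNA-Ctrl_E1 and 3040 in shRNA-Ctrl_E0. Its response differed between arms by 0.06 ± 0.18 (95% interval -0.29 to 0.42), computed from the authors' deposited tables. Adora2b, a Gs-coupled adenosine receptor gene, stood at -0.21 ± 0.21 with shRNA-cFos, against a rise of 0.42 ± 0.16 with shRNA-Ctrl (adjusted p = 0.0324), by the authors' deposited tables. Adora2a, a Gs-coupled gene, was called in no comparison. With overexpression neither Adora1 (-0.11 ± 0.08) nor Cnr1 (-0.11 ± 0.09) was called in the authors' deposited table. Most markers of GABAergic interneurons, a broad class that includes cells rich in Cnr1, were higher at E1. With shRNA-cFos 7 of 10 were higher, beside 16.3% of all genes tested, and with shRNA-Ctrl 8 of 10, beside 16.8%. None of the 10 was lower in either arm, where 11.7% (shRNA-cFos) and 16.2% (shRNA-Ctrl) of all genes tested were, in the authors' deposited tables. Their estimated summed level was 15550 in shRNA-cFos_E1 and 11243 in shRNA-cFos_E0, and 20211 in shRNA-Ctrl_E1 and 17068 in shRNA-Ctrl_E0, with none at 0. In the authors' deposited tables Cck, 1 of these markers, rose with shRNA-cFos (0.31 ± 0.08). With shRNA-Ctrl, where Cnr1 was higher, Cck was not called (-0.07 ± 0.10, adjusted p = 0.667). With overexpression 1 of the 10 markers was higher, Npy at 1.18 ± 0.11, beside 7.10% of all genes tested. In the same comparison 2 were lower, Cck at -0.88 ± 0.10 and Slc32a1 at -0.26 ± 0.09, beside 5.86% of all genes tested. The part of these markers in the Cnr1 and Htr3a results was not tested.

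Set against each other directly, the E1 responses of 9 of 29 receptor genes differed between shRNA-cFos and shRNA-Ctrl, beside 23.8% of all genes tested, computed from the authors' deposited tables. The response was higher with shRNA-cFos for 5, namely Htr1a (0.74 ± 0.18, adjusted p = 0.0006), Adora1 (0.62 ± 0.14, adjusted p = 0.000159), Drd5 (0.59 ± 0.20, adjusted p = 0.0174), Adra1d (0.58 ± 0.13, adjusted p = 0.000165) and Chrm1 (0.39 ± 0.12, adjusted p = 0.0121). For all genes that direction took 12.9%. Lower with shRNA-cFos were Htr2c (-0.94 ± 0.24, adjusted p = 0.00112), Hrh3 (-0.69 ± 0.16, adjusted p = 0.000162), Htr6 (-0.67 ± 0.25, adjusted p = 0.0371) and Adra2a (-0.66 ± 0.19, adjusted p = 0.00555), where 11.0% of all genes were. The higher set holds 3 of the 4 receptor genes with the most RNA per length. Htr1a fell in each arm and fell less with shRNA-cFos, Adora1 and Adra1d were called in the shRNA-cFos arm, and Htr2c, Hrh3 and Adra2a in the shRNA-Ctrl arm.

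Granule neuron markers were read beside the higher set. Their E1 response was higher with shRNA-cFos for 8 of 10 and lower for none, and the median of these differences, taken from the authors' deposited tables, was 0.79. In single arms, 6 of 10 rose and none fell with shRNA-cFos, and 1 rose and 7 fell with shRNA-Ctrl. For every cell list here the shares over all genes tested are the same. They are 16.3% higher and 11.7% lower with shRNA-cFos, and 16.8% higher and 16.2% lower with shRNA-Ctrl. With overexpression they are 7.10% higher and 5.86% lower, and in the direct test between arms 12.9% higher and 11.0% lower. The estimated summed level of the granule neuron markers was 15766 in shRNA-cFos_E1 and 11923 in shRNA-cFos_E0, against 20710 in shRNA-Ctrl_E1 and 26578 in shRNA-Ctrl_E0, and none was at 0. Of the higher receptor set, Htr1a and Drd5 fell with shRNA-Ctrl, while Adora1, Adra1d and Chrm1 were not called. With overexpression Adra1d, Chrm1 and Drd5 fell, while Adora1 and Htr1a were not called. There 1 granule neuron marker rose and 4 fell, with an estimated summed level of 19923 in cFos_OE and 21411 in EYFP_OE. Other neuron lists differed from these in the direct test between arms. The response was lower with shRNA-cFos for 1 of 3 mossy cell markers and 1 of 6 tested CA1 to CA3 pyramidal markers. None of either list was higher, and the median differences were -0.60 and -0.40. For interneuron markers 1 of 10 was higher and none lower, with a median of 0.14. Microglial markers were higher for 1 of 8 and lower for 3 with shRNA-cFos, higher for 6 and lower for none with shRNA-Ctrl, and higher for 5 and lower for none with overexpression in the authors' deposited tables. Of 8 astrocyte markers, 5 rose and 1 fell with shRNA-cFos, 2 rose and none fell with shRNA-Ctrl, and 2 rose and 1 fell with overexpression. Endothelial and mural markers were higher for 1 of 8 and lower for 2 with shRNA-cFos, higher for 2 and lower for none with shRNA-Ctrl, and lower for 5 and higher for none with overexpression, and the response of 4 was lower with shRNA-cFos in the direct test, with a median difference of -0.50 over the 8. The part of these cell markers in the receptor results was not tested. Exons of Adora1, Chrm1, Drd5 and Hrh3 overlap antisense genes in the GENCODE M21 annotation, which the counts may or may not separate.

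**Figure D4:**
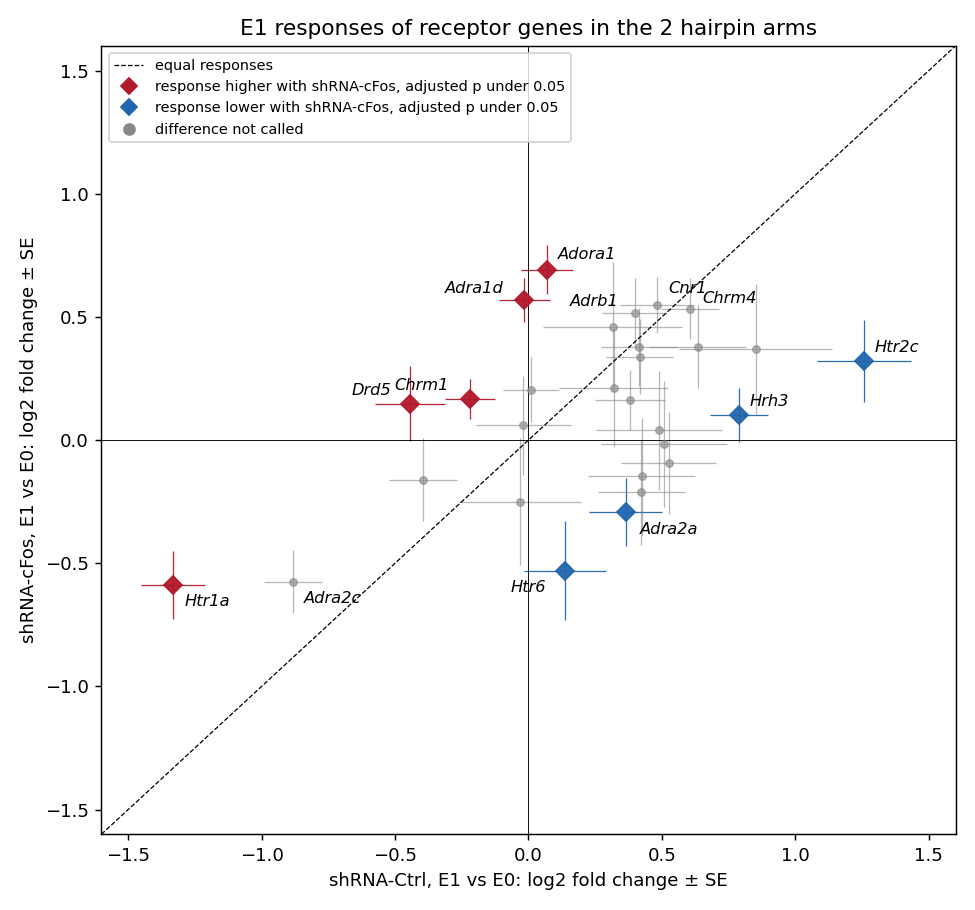
E1 response (log2 fold change ± SE) with shRNA-cFos (y axis) against that with shRNA-Ctrl (x axis) for the 29 receptor genes tested in both arms; diamonds mark the 9 whose difference passed an adjusted p of 0.05. Adora1 and Adra1d lie at 0.69 and 0.57 on the y axis and near 0 on the x axis, and Htr2c lies at 0.32 on the y axis and 1.26 on the x axis.

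By coupling, Gq receptor genes were called higher for 1 of 9 with shRNA-cFos, with a median of 0.21, against 5 of 9 with shRNA-Ctrl, with a median of 0.38, and none was lower in either arm, beside 16.3% and 16.8% of all genes tested called higher, in the authors' deposited tables. In the direct test between arms, 2 of these 9 had a higher response with shRNA-cFos and 1 a lower one. Gi/o receptor genes split in each arm. Counted from the authors' deposited tables, 3 of the 10 tested with shRNA-cFos rose and 2 fell, and 4 of the 11 tested with shRNA-Ctrl rose and 3 fell. Gs receptor genes had 1 of 9 higher and 1 lower with shRNA-cFos, against 3 higher and 1 lower with shRNA-Ctrl, in the authors' deposited tables. For each of these coupling classes the shares over all genes tested are the same. They are 16.3% higher and 11.7% lower with shRNA-cFos, and 16.8% higher and 16.2% lower with shRNA-Ctrl.

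Genes that make, carry or clear the ligands were read beside their receptors. Of the 8 endocannabinoid genes, 3 rose and none fell at E1 with shRNA-cFos, 4 fell and none rose with shRNA-Ctrl, and 6 differed between arms, all with a higher response with shRNA-cFos, from the authors' deposited tables. Among all genes tested, 16.3% rose with shRNA-cFos, 16.2% fell with shRNA-Ctrl and 12.9% had a higher response with shRNA-cFos. Napepld, which makes anandamide and related lipids, fell by 1.11 on the log2 scale with shRNA-Ctrl, and the same table gave -0.87 ± 0.10 for Dagla, which makes 2-arachidonoylglycerol, and -0.63 ± 0.12 for Faah, which degrades anandamide, in the authors' deposited table. With shRNA-cFos, Cnrip1, whose product binds the CB1 receptor, rose by 0.63 ± 0.10, Mgll, which degrades 2-arachidonoylglycerol, by 0.28 ± 0.08, and Faah by 0.30 ± 0.10, in the authors' deposited table. With overexpression 1 of the 8 was called, Dagla at -0.46 ± 0.08, beside 13.0% of all genes tested in the authors' deposited table.

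The counts that follow stand beside 28.1% of all genes tested called with shRNA-cFos, 33.0% with shRNA-Ctrl and 13.0% with overexpression. For adenosine, 1 of 7 tested genes of supply and clearance fell with shRNA-cFos and none rose, the transporter gene Slc29a1 at -0.48 ± 0.11. With shRNA-Ctrl 1 of 8 rose, the ectonucleotidase gene Entpd1 at 0.51 ± 0.13, in the authors' deposited tables. With overexpression 2 of 8 rose, Entpd3 (0.53 ± 0.13) and Entpd2 (0.46 ± 0.14), in the authors' deposited table. Among genes for acetylcholine, Ache, the esterase that clears it, rose with shRNA-Ctrl (0.56 ± 0.08), the only call among 3 tested in the authors' deposited table. Of 12 monoamine genes tested with shRNA-Ctrl, the vesicular transporter gene Slc18a2 (0.51 ± 0.16) rose and the plasma membrane transporter gene Slc29a4 (-0.29 ± 0.11) fell, and with overexpression the genes that were higher included Slc29a4 (0.58 ± 0.12) and Th (0.51 ± 0.16), in the authors' deposited tables. Th had a mean normalized count of only 7.27. By the authors' DESeq2 test 0 of 6 nicotinic subunit genes were called at E1 with shRNA-cFos and 0 of 8 with shRNA-Ctrl, none of them with an unadjusted p under 0.05, and with overexpression 1 of 8 nicotinic subunits was called, Chrna5 at -0.56 ± 0.19 in the authors' deposited table. Of 11 further receptor genes of these families, only 3 had an adjusted p with shRNA-cFos, 5 with shRNA-Ctrl and 6 with overexpression. By that test 0 of those were called, and 1 had an unadjusted p under 0.05 with shRNA-Ctrl and 1 with overexpression. Hrh4 was listed at 0 throughout.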

How the data were processed

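Total RNA of dentate gyrus was sequenced by the authors, and the build mm9 and the tools TopHat2 and DESeq2 appear, per the submitters' processing notes; their versions, the counting tool, annotation and strand setting were not given in the sources used here. Per the file headers, each deposited table gives a mean normalized count (a signal, the count after scaling by size factors), a log2 fold change and its SE on the log2 scale, a Wald score, a p-value and an adjusted p-value. The tables hold 0 columns of values per library, so no new fit was made, no library could be left out, and precision is that of the deposited SE. Largest standard errors of 0.29 (shRNA-Ctrl), 0.26 (shRNA-cFos) and 0.20 (overexpression) were read as the mark of a normal prior around 0, with standard deviations of 0.59, 0.53 and 0.41. This prior was removed algebraically, taking the root with the smaller error, to estimate group levels; where SE is near its largest this is uncertain.

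Per the file headers, rows carry gene symbols; 27 rows of the overexpression table whose names had become dates were left out. The difference of E1 responses was one log2 fold change minus the other, divided by their joint SE (the square root of the sum of both squares); its p was 2-sided from the normal distribution and was adjusted by the Benjamini-Hochberg method over 14386 genes; it was tested on simulated data. The p-values rest on 3 animals a group and on the error that the authors' fit gave each gene. The spread between those animals cannot be seen here. Exon lengths and overlaps came from GENCODE M21 (GRCm38), a later build than the authors'. The members, related genes and cell markers were chosen with earlier results of these data known. Every member was accounted for, and up to 3 called genes of each related list were named. Python 3.11.15, numpy 2.4.6, pandas 2.3.3, scipy 1.17.1 and matplotlib 3.10.9 were used.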

Additional observations from a re-analysis of the deposited data

Results flagged for a closer look

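A test of the difference itself separated the E1 responses of 9 of 29 receptor genes between the hairpins, beside 23.8% of all genes tested. Differences are shRNA-cFos minus shRNA-Ctrl on the log2 scale, computed from the authors' deposited tables. The values were 0.74 for Htr1a, 0.62 for Adora1, 0.59 for Drd5, 0.58 for Adra1d and 0.39 for Chrm1, and -0.94 for Htr2c, -0.69 for Hrh3, -0.67 for Htr6 and -0.66 for Adra2a. At an adjusted p of 0.01 the differences of Htr6, Drd5 and Chrm1 no longer passed. With a minimum change of 1.5-fold those of Adra1d and Chrm1 no longer passed.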

How the results depend on the processing

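No paired analysis was possible because the deposited tables hold no values per library, and for the same reason no replicate could be left out; the depth of each library is unknown, and Htr1b, Htr1d and Htr5b lack an adjusted p in at least 1 table. Of the receptor genes called at E1 with shRNA-Ctrl (17), 11 passed an adjusted p of 0.01 and 7 had a change of at least 1.5-fold. With that fold minimum the count was 2 with shRNA-cFos (8 without it, Adora1 and Htr1a remaining) and 3 with overexpression (7 without it, Drd1a, Adra1a and Adra1d remaining). The fold minimum acts on changes already pulled toward 0. Dropping the filter on low counts, requiring a mean of 50, centring each table or removing the prior left all 4 counts within 1.5 times. Of 721 values of single genes under these alternatives, 685 kept direction and side of the threshold, 32 fell below it, 2 passed (Chrm3 with a mean of at least 50 and Hrh1 with centring, both with overexpression) and 2 changed sign: with overexpression centring gave 0.00714 for Htr1a and 0.00391 for Hrh3. Over all genes the fold minimum left 1077 of 4039 calls with shRNA-cFos, 1660 of 5173 with shRNA-Ctrl, 615 of 2052 with overexpression and 1708 of 3426 for the difference. An adjusted p of 0.01 left 2622, 3732, 1366 and 2202 in the same order.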

Other observations

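Genes that act just downstream of the receptors also differed between the arms at E1. Of 12 G protein alpha subunit genes, 4 rose and 2 fell with shRNA-cFos, and 3 rose and 3 fell with shRNA-Ctrl, in the authors' deposited tables. Of all genes tested, 16.3% rose and 11.7% fell with shRNA-cFos, and 16.8% rose and 16.2% fell with shRNA-Ctrl. Gnaq, which couples Gq/11 receptors to phospholipase C, rose by 0.27 ± 0.09 with shRNA-cFos and fell with shRNA-Ctrl (-0.37 ± 0.09), a difference of 0.64 ± 0.12 (adjusted p = 7.63e-06) computed from the authors' deposited tables. Gnal, a stimulatory subunit used by dopamine and adenosine receptors in the striatum, rose with shRNA-cFos (0.64 ± 0.10), and Gnao1, the main Gi/o subunit of neurons, rose there by 0.46 ± 0.09 in the authors' deposited table. In all, 7 of the 12 differed between arms, the response being higher with shRNA-cFos for 4 and lower for 3. Of all genes tested 23.8% differed, 12.9% higher and 11.0% lower.

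Among 7 receptor kinases and arrestins, which switch off activated receptors, 4 rose with shRNA-cFos and none fell, against 1 higher and 1 lower with shRNA-Ctrl, in the authors' deposited tables. Of all genes tested 16.3% rose with shRNA-cFos and 16.8% with shRNA-Ctrl. Arrb1, a beta-arrestin gene, rose by 0.57 ± 0.08 with shRNA-cFos, Grk6 by 0.51 ± 0.10 and Adrbk1, the beta-adrenergic receptor kinase, by 0.41 ± 0.09 in the authors' deposited table. With overexpression Arrb1 was higher as well, at 0.57 ± 0.08 (adjusted p = 9.91e-12) in the authors' deposited table. The other 6 were not called, where 13.0% of all genes tested were called.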
